A study of Rattus norvegicus with 9 samples.

Results

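RNA sequencing of rat knee cartilage was read for 9 apoptosis regulators of the BCL2-caspase pathway, taken by name from the 32043 genes of the deposited table. They were the pore-forming proteins Bax and Bak1, the survival proteins Bcl2, Bcl2l1 (Bcl-xL), and Mcl1, the BH3-only proteins Bcl2l11 (Bim) and Bbc3 (Puma), and the initiator caspases Casp8 and Casp9. All 9 were found once each, and all 9 passed the filter for low values. The filter was a mean over the 9 libraries of at least 0.5 FPKM. FPKM is a read level scaled to gene length and to a size for each library. The study asked how Shengyu decoction (SYD), a herbal formula given by gavage, acts on knee osteoarthritis (KOA). The 9 libraries fell into 3 groups of 3. Per the study's methods, the rats were male Sprague-Dawley rats bought at 8 weeks of age. The control group had the joint capsule opened and closed. The model group had KOA induced by modified Hulth surgery and daily forced activity over the 4 weeks after it. The SYD group had the same induction, and then 4 weeks of SYD. Tissue was taken 8 weeks after surgery. Per the study, the sequenced SYD rats were those of its high dose. The library names of this group begin with CXTB, which the labels assign to SYD without saying what it stands for, while the study also had a group given a drug abbreviated CXB. The labels name no dose and no genotype and do not say which animal each library came from. The p-values therefore measure the spread between libraries, which may be partly technical.

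Mitochondrial apoptosis is decided by the balance of the BCL2 family. BH3-only proteins such as Bbc3 and Bcl2l11 bind and neutralize the survival proteins Bcl2, Bcl2l1, and Mcl1, which frees Bax and Bak1 to open the outer mitochondrial membrane. Cytochrome c then joins Apaf1 in the apoptosome, which activates Casp9, while Casp8 is activated at death receptors, and both start the caspase cascade. Loss of chondrocytes by apoptosis is a known feature of osteoarthritic cartilage. Much of this pathway is controlled at the protein level, which mRNA does not show.

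The libraries differed before any member was considered. The depth recovered from the FPKM values was 14914121 to 19510537 reads per library, but mitochondrial genes took 4.05% to 4.86% of the reads in control, 39.5% to 90.7% in the model, and 23.7% to 72.7% in SYD. This left 1744769 to 11106680 reads for all other genes in the model libraries, against 14306782 to 17373645 in control. The 14 chondrocyte markers searched for summed to 465 to 11671 FPKM in control, 159 to 912 in the model, and 106 to 1447 in SYD, and Matn1, a cartilage matrix gene, was listed at 0 in all 6 model and SYD libraries. Col2a1, the main cartilage collagen, ranged from 348 to 8323 FPKM in control, from 39.0 to 606 in the model, and from 42.4 to 609 in SYD. The labels name cartilage, although their extraction text speaks of retina. In whole tissue, fewer cells of a type and less RNA per cell cannot be told apart. The part of these library differences in the results below was not tested except where a value is given.

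The promoters of 3 members are shown, because they belong to the highest and the lowest member in control (Mcl1 and Bcl2) and to the member whose model libraries lay furthest apart in FPKM (Bcl2l1). Each is the 250 bases before a RefSeq transcription start in build GRCr8, 5′ to 3′ on the gene's strand. Mcl1 lies at chr2:185907918-185908167 (plus strand), Bcl2 at chr13:23366901-23367150 (minus strand), and the most upstream of the 4 Bcl2l1 windows at chr3:161764776-161765025 (minus strand). Capitals mark a match, on either strand, to the GATAA motif, the GC box GGGCGG, the CCAAT box, or the TATA box TATAAA.
Mcl1: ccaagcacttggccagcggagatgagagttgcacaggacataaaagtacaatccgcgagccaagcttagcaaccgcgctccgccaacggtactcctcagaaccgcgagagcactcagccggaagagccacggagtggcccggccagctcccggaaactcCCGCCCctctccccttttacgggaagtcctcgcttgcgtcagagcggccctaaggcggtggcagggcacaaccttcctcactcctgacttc
Bcl2: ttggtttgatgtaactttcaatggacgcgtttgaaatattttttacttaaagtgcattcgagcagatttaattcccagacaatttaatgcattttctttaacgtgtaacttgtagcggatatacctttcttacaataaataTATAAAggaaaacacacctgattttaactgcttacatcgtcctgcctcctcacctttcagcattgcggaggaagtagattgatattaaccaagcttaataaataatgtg
Bcl2l1: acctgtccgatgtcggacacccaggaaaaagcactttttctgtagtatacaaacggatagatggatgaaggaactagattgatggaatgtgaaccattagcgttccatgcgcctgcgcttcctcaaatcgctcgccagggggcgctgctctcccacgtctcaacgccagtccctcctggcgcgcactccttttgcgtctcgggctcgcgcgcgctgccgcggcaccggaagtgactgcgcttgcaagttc
The Mcl1 window is 62% G and C and holds 1 GGGCGG, read here on the other strand. The Bcl2 window is 33.6% G and C and holds 1 TATAAA. The Bcl2l1 window is 57.6% G and C and holds none of the 4 motifs. None of the 4 Bcl2l1 windows holds GATAA, a form of the motif of the GATA factors, which include erythroid regulators. Other forms of that motif, such as GATAG, were not searched for, and the Bcl2l1 window shown holds GATAG. Over 33469 rat windows of this length, the GGGCGG box was present in 30.5%, the TATAAA box in 12.9%, the CCAAT box in 34%, and the GATAA motif in 23.5%. Windows were found for 6 of the 9 members, and no motif was found to overlap another in them.

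Per length, the 9 transcripts stood in clear tiers in the control libraries, which held RNA of more than cartilage cells. Markers there summed to 3195 to 6035 FPKM (neutrophil), 1466 to 3720 (erythroid), and 3001 to 5965 (osteoblast), beside 465 to 11671 (chondrocyte). The part of these cell types in the tiers was not tested. Mcl1 was highest, at 49.1 ± 6.21 FPKM (SD, n = 3). Next came Bcl2l1 at 12.0 ± 3.54, Bak1 at 9.99 ± 1.24, and Bax at 9.69 ± 2.19 FPKM, whose ranges overlapped one another. Casp8 at 4.13 ± 0.436 and Bbc3 at 3.66 ± 0.647 FPKM overlapped, as did Casp9 at 2.57 ± 0.330 and Bcl2l11 at 2.43 ± 0.347 FPKM. Bcl2, the namesake of the family, was lowest at 1.03 ± 0.274 FPKM. Mcl1 stayed the highest member in the model and SYD groups as well, and its control median was 41.8 times that of Bcl2.

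**Figure D1:**
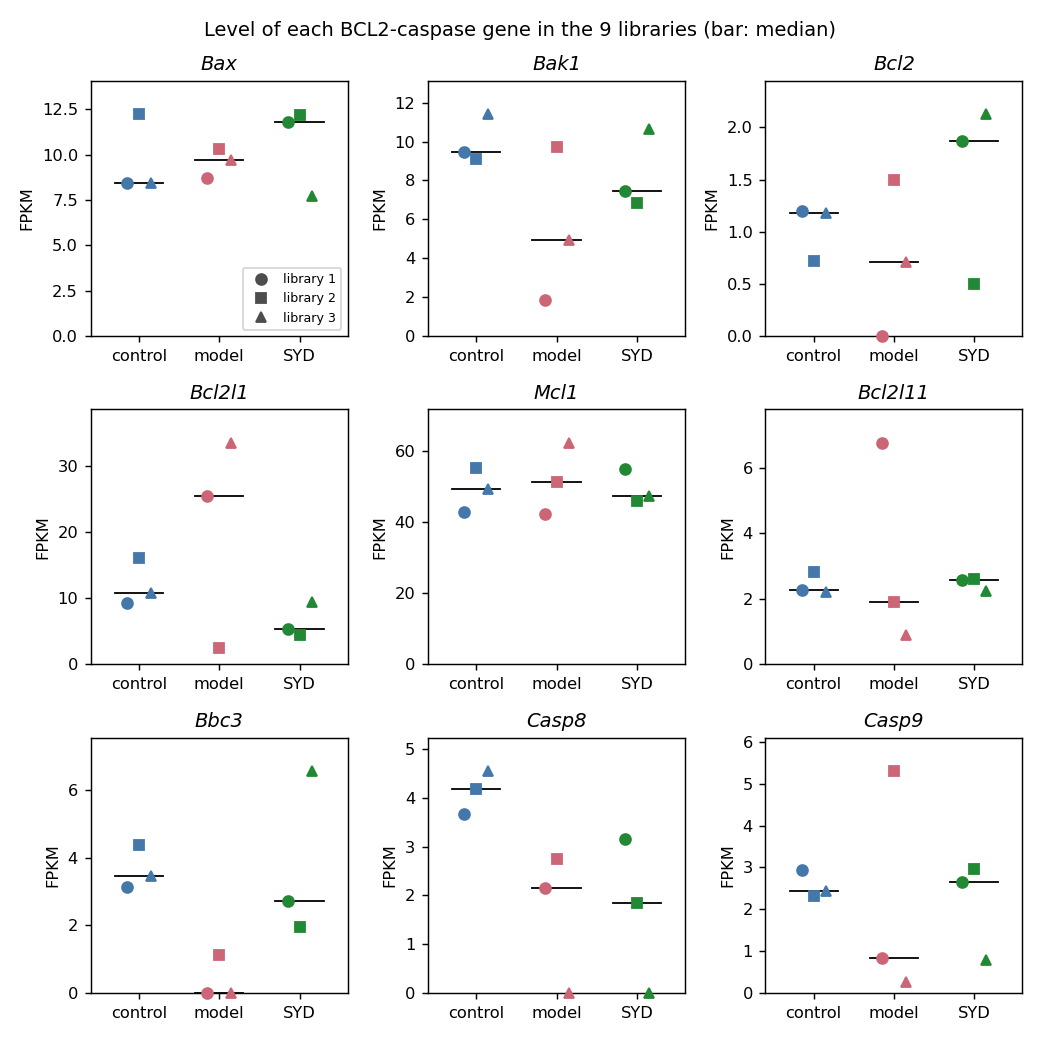
FPKM (vertical axis, from 0) of each of the 9 genes in the control, model, and SYD libraries, 1 panel per gene, with a bar at each group's median and the marker shape giving the library number. Mcl1 and Bax stay within 1.47-fold and 1.58-fold over all 9 libraries, while Bbc3 is listed at 0 in 2 model libraries and Bcl2l1 splits the model group between 2.45 and 33.5 FPKM.

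Among the members, Bbc3 alone was called in the comparisons with the model group, lower in the model than in control and higher in SYD than in the model. A gene was called when its unadjusted limma p was under 0.05 and its log2 fold change was over 1 or under -1, the study's own criteria. In the model against control, 1 of 9 members was called, and it was lowered, where 14.7% of the 13898 genes tested were called (3.55% raised and 11.2% lowered). Between SYD and the model, 1 of 9 was called and it was raised, against 4.15% of all genes (3.62% raised and 0.532% lowered). In SYD against control, 0 of 9 members were called by limma and 1 had an unadjusted p under 0.05 (Bcl2l1), where 16.5% (7.25% raised and 9.22% lowered) and 34.5% of all genes did so, and limma-voom on the recovered reads called 1, also Bcl2l1, beside 24.4% of all genes. No member had an adjusted p under 0.05 in any of these comparisons with either tool, against 2.59%, 0.00%, and 17.3% of all genes with limma on FPKM. The first and the second comparison share the 3 model libraries, so a low value there moves both, and their agreement in Bbc3 is not independent. The median log2 fold change of the 9 members was -0.32, 0.11, and -0.09 in the 3 comparisons, beside -0.23, 0.22, and 0.00 for all genes tested.

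**Figure D2:**
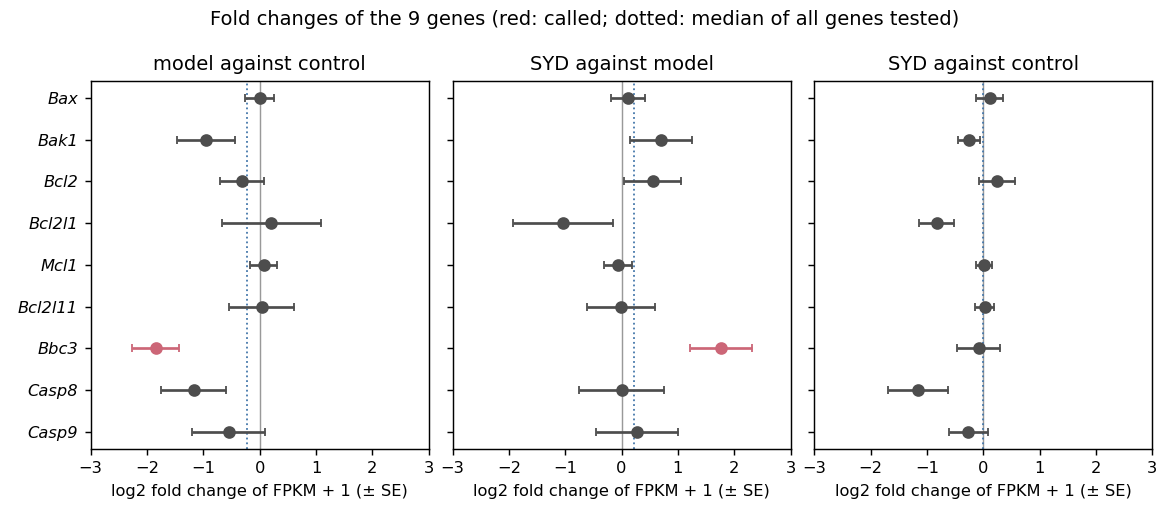
Log2 fold change of FPKM + 1 with its standard error from limma (horizontal axis) for the 9 genes in the 3 comparisons, with called genes in red and the median of all genes tested as a dotted line. Bbc3 is at -1.85 in the model against control and at 1.76 in SYD against the model, and the other 8 genes are not called.

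Bbc3 (ENSRNOG00000062473, positions 77014543 to 77022509 of chromosome 1, plus strand, as the deposited table gives them) encodes a BH3-only protein that binds all of the survival proteins and is known to be induced under several kinds of cell stress. Its level in control libraries 1, 2, and 3 was 3.13, 4.38, and 3.46 FPKM. In the model libraries it was listed at 0, at 1.13, and at 0 FPKM, and in the SYD libraries it was 2.73, 1.95, and 6.55 FPKM. All 3 model libraries lay below every control and every SYD library, while control and SYD overlapped. Such a separation, lower in the model, was found for 20.0% of all genes against control, and 2 of the 9 members showed it, Bbc3 and Casp8, while 0 of 9 were higher without overlap (8.65% of all genes). SYD was higher than the model without overlap for 7.89% of all genes and 1 of the 9 members, and lower for 3.17% and 0 of 9. On the log2(FPKM + 1) scale, which understates changes of low genes, Bbc3 was -1.85 ± 0.42 (SE) in the model against control, with an unadjusted p of 0.00396 and a Benjamini-Hochberg adjusted p of 0.0793 (limma). SYD exceeded the model by 1.76 ± 0.55, with an unadjusted p of 0.0171 and an adjusted p of 0.723 (limma). SYD and control differed by -0.09 ± 0.38. The exact two-sided permutation p was 0.1 for each of the first 2 contrasts, the smallest that 3 against 3 allows.

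The zeros of Bbc3 stood on few reads. Model libraries 1 and 3 would have held 25.9 and 47.4 reads of Bbc3 at the control mean, and held 0, which allows up to 0.423 and 0.232 FPKM (3 reads, counting error only). Model library 2 had 58 reads. Zeros were common in these libraries: of the 6985 genes with at least 3 FPKM in every control library, 14.1%, 2.22%, and 9.59% were listed at 0 in model libraries 1, 2, and 3, against 0.358% to 2.12% in SYD. With model library 2, the one with the most non-mitochondrial reads, as the only model library, the log2 difference of Bbc3 was -1.12 from control and 1.04 for SYD from it. These are values with no test, since 1 library has no spread of its own. The SYD call was lost on leaving out model library 1 (1.58, unadjusted p = 0.0508, limma) or library 3 (1.58, unadjusted p = 0.0575, limma). The call against control was kept whichever library was left out, at -2.21 to -1.67.

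**Figure D3:**
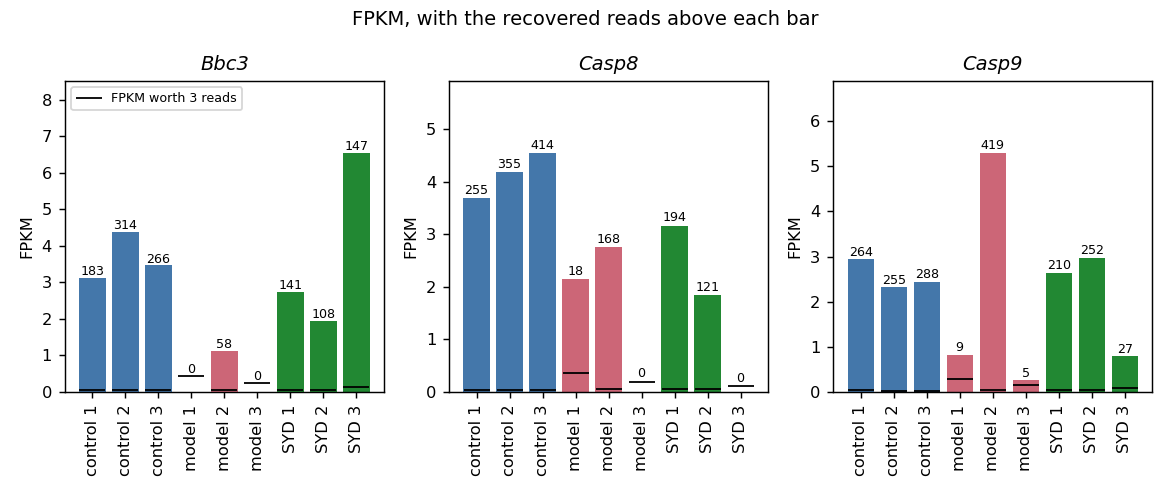
FPKM (bars, from 0) of Bbc3, Casp8, and Casp9 in the 9 libraries, with the recovered reads printed above each bar and a dash at the FPKM worth 3 reads. Bbc3 has 0, 58, and 0 reads in model libraries 1 to 3, the SYD libraries have 108 to 147, and Casp8 has 0 reads in model library 3 and SYD library 3.

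Bcl2l11 (ENSRNOG00000016551, plus strand of chromosome 3 from 115366646 to 115404068), the other BH3-only member, is induced by FoxO factors and on growth factor withdrawal. It was 2.26, 2.83, and 2.20 FPKM in control, 6.77, 1.92, and 0.891 in the model, and 2.57, 2.62, and 2.23 in SYD. Control and SYD were nearly level, while the model libraries lay on both sides of them, with 137 reads behind the highest value and 33 behind the lowest. The log2 fold changes were 0.03 ± 0.58 in the model against control, -0.01 ± 0.61 in SYD against the model, and 0.02 ± 0.17 in SYD against control. Bbc3 was listed at 0 in model library 1, where Bcl2l11 was highest.

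None of the 3 survival genes was called by limma on the deposited FPKM with all libraries in the fit. Mcl1 (ENSRNOG00000063678, plus strand of chromosome 2 from 183219220 to 183222303), whose mRNA and protein turn over quickly, had 42.9, 55.3, and 49.2 FPKM in control, 42.3, 51.2, and 62.3 in the model, and 54.8, 45.9, and 47.2 in SYD. The 3 groups overlapped, and even model library 1, with the fewest non-mitochondrial reads, held 324 reads of it. Its log2 fold changes were 0.07 ± 0.24, -0.06 ± 0.25, and 0.01 ± 0.15 in the model against control, SYD against the model, and SYD against control. Bcl2 (ENSRNOG00000067693, minus strand of chromosome 13 from 22684989 to 22853743), which guards the mitochondrial membrane, had 1.20, 0.716, and 1.18 FPKM in control, was listed at 0 and had 1.49 and 0.714 in the model, and had 1.87, 0.501, and 2.13 in SYD. Its values overlapped between all 3 groups, and the difference between the groups was -0.32 ± 0.39, 0.55 ± 0.50, and 0.24 ± 0.32 in the same order. Model library 1, where Bcl2 had 0 reads, would have held 30.1 reads at the control mean.

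Bcl2l1 (ENSRNOG00000007946, minus strand of chromosome 3 from 141253523 to 141303479) encodes Bcl-xL, a survival protein that maturing red blood cells are known to depend on. It was 9.28, 16.0, and 10.7 FPKM in control, 25.5, 2.45, and 33.5 in the model, and 5.35, 4.52, and 9.39 in SYD. The model group held both the lowest and the 2 highest of the 9 values, on either side of all control and SYD libraries. The log2 fold change was accordingly 0.21 ± 0.88 in the model against control and -1.04 ± 0.89 in SYD against the model, with unadjusted p-values of 0.823 and 0.287 (limma). SYD was below control by -0.83 ± 0.31 on this scale, with an unadjusted p of 0.0378 and an adjusted p of 0.122 (limma), and SYD library 3 overlapped the control group. With limma-voom on the recovered reads this fall was called (-1.02, unadjusted p = 0.0127, adjusted p = 0.0572). Leaving out model library 2 turned Bcl2l1 into a called rise in the model (1.25, unadjusted p = 0.0100, limma) and a called fall in SYD against the model (-2.08, unadjusted p = 0.00285, limma). With model library 2 as the only model library, the difference from control was -1.88, a value with no test. Without SYD library 3, the fall of SYD below control was called (-1.10, adjusted p = 0.0395, limma), while it was -0.89 to -0.62 without control library 2 or 3 or SYD library 1 or 2 (unadjusted p = 0.0721 to 0.113, limma). With all 9 libraries in one fit the unadjusted p was 0.298 (limma). The table also lists an unnamed locus (LOC108350502, mean 22.0 FPKM) on the opposite strand across Bcl2l1, and the kit does not mark strand, so reads of the 2 cannot be told apart where they overlap.

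Erythroid marker genes moved with Bcl2l1. The 7 erythroid markers found of the 9 searched for, which include the red cell genes Alas2, Klf1, and Epb42, summed to 1466, 3720, and 1912 FPKM in control, to 6537, 52.6, and 7586 in the model, and to 237, 276, and 2278 after SYD. Of these, 3 were listed at 0 in model library 2, Klf1 and Epb42 among them, and none of the 7 was listed at 0 in another library. Of the 36 pairs of libraries, 34 had the same order for Bcl2l1 as for this sum, against 30 for the neutrophil markers, 18 for the chondrocyte markers, and 5 for the osteoblast markers. Bnip3l, a BH3-domain receptor that clears mitochondria from maturing red cells, was chosen after its own values were seen, so it lends no support to the pattern of Bcl2l1. It had 29.5, 57.2, and 33.7 FPKM in control, 111, 17.2, and 112 in the model, and 20.7, 14.1, and 34.9 in SYD. The part of red cell RNA in the Bcl2l1 values was not tested further.

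**Figure D4:**
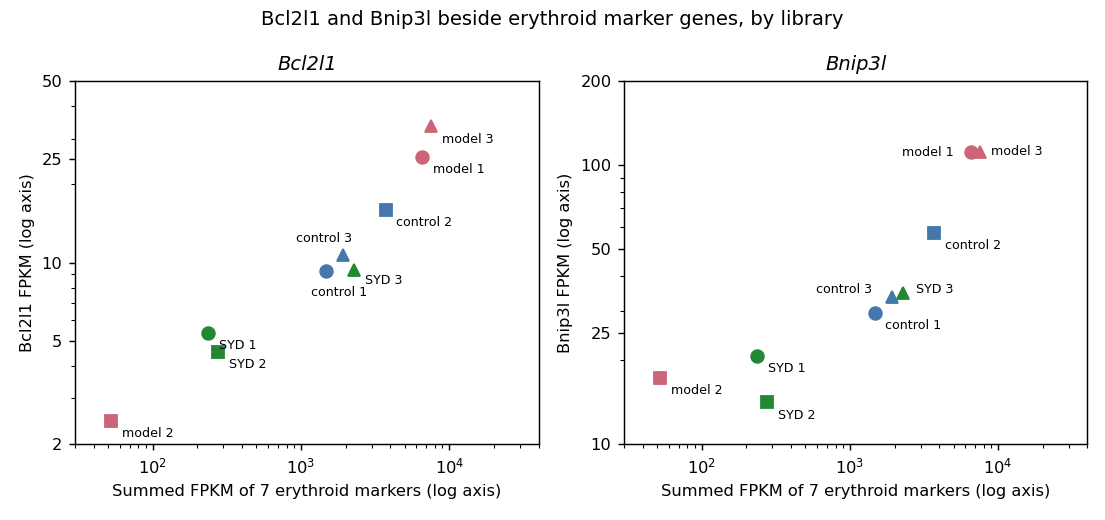
Bcl2l1 (left) and Bnip3l (right) in FPKM against the summed FPKM of 7 erythroid marker genes, both axes logarithmic, 1 point per library. Model libraries 1 and 3 are at the upper right of both panels and model library 2, with a marker sum of 52.6 FPKM, is at the lower left with SYD libraries 1 and 2.

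The pore formers did not pass the test in any comparison. Bax (ENSRNOG00000020876, minus strand of chromosome 1 from 95938808 to 95945368) had 8.40, 12.2, and 8.45 FPKM in control, 8.72, 10.3, and 9.69 in the model, and 11.8, 12.2, and 7.74 in SYD. The groups overlapped, and the log2 fold change was -0.00063 ± 0.26 in the model against control, 0.11 ± 0.30 in SYD against the model, and 0.11 ± 0.23 in SYD against control. The table places Bax across Ftl1, a ferritin gene with a mean of 555 FPKM on the same strand, so reads could be split between them. Bak1 (ENSRNOG00000000485, minus strand of chromosome 20 from 5100480 to 5109264), which sits in the outer mitochondrial membrane, had 9.47, 9.10, and 11.4 FPKM in control, 1.86, 9.70, and 4.93 in the model, and 7.46, 6.86, and 10.7 in SYD. Model libraries 1 and 3 were the 2 lowest of the 9, while model library 2 lay within the control range. The log2 fold change was -0.95 ± 0.51 in the model against control (unadjusted p = 0.108, adjusted p = 0.373, limma), 0.70 ± 0.54 in SYD against the model, and -0.25 ± 0.20 in SYD against control. Without model library 2 the model was called lower than control (-1.41, unadjusted p = 0.0170, limma), but the difference was -0.46 without model library 1 (unadjusted p = 0.213, limma) and -0.36 with limma-voom (unadjusted p = 0.495).

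The ratio of Bax to Bcl2, often read as a balance of death to survival, did not separate the groups. It was 6.99, 17.1, and 7.18 in control, 6.89 and 13.6 in model libraries 2 and 3, and 6.29, 24.3, and 3.64 in SYD. No ratio exists for model library 1, where Bcl2 was listed at 0. The highest and the lowest ratio were both in SYD, in libraries 2 and 3.

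The initiator caspases had their lowest values outside the control group. Casp8 (ENSRNOG00000012331, plus strand of chromosome 9 from 60264075 to 60312542), the caspase of the death receptors, had 3.68, 4.18, and 4.55 FPKM in control, 2.14, 2.75, and a listed 0 in the model, and 3.16, 1.85, and a listed 0 in SYD. Every model library and every SYD library lay below every control library, a separation found for 20.0% of all genes in the model and for 22.2% in SYD. Casp8 was the 1 member of the 9 that separated from control in SYD, and 0 of 9 were higher in SYD without overlap (20.3% of all genes). The log2 fold change from control was -1.17 ± 0.58 in the model (unadjusted p = 0.0865, adjusted p = 0.338, limma) and -1.17 ± 0.53 in SYD (unadjusted p = 0.0713, adjusted p = 0.181, limma), and SYD differed from the model by 0.0021 ± 0.76. The exact two-sided permutation p against control was 0.1 in both, the smallest possible. These 2 contrasts share the control libraries. At the control mean, model library 3 and SYD library 3 would have held 63.5 and 109.9 reads of Casp8. Leaving out model library 2 or SYD library 1 brought the fall from control past the criteria (-1.53, unadjusted p = 0.0450, and -1.60, unadjusted p = 0.0223, limma), while without model library 3 or SYD library 3 it was -0.58 and -0.57.

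Casp9 (ENSRNOG00000012944, plus strand of chromosome 5 from 154109046 to 154126626), the caspase of the apoptosome, had 2.94, 2.32, and 2.44 FPKM in control, 0.828, 5.30, and 0.252 in the model, and 2.64, 2.97, and 0.784 in SYD. Model library 2 was the highest of the 9, and model libraries 1 and 3, with 9 and 5 reads, were the lowest along with SYD library 3. The log2 fold change was -0.55 ± 0.65 in the model against control, 0.28 ± 0.73 in SYD against the model, and -0.27 ± 0.34 in SYD against control. Without model library 2, Casp9 was called lower in the model (-1.23, adjusted p = 0.0472, limma), and with that library as the only one the difference was 0.82, a value with no test. In model library 2 Casp9 was at its highest and Bcl2l1 at its lowest of the 9 libraries, and model library 3 had the reverse.

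Over the 3 groups together, limma's moderated F test gave Bbc3 an unadjusted p of 0.00433 and an adjusted p of 0.0855, and the other members adjusted p-values of 0.374 to 0.998. An adjusted p under 0.05 was reached by 0 of 9 members, where 2.32% of all genes reached it. By unadjusted p, 1 of 9 members was under 0.05, against 20.5% of all genes. With limma-voom on the recovered reads the adjusted p of Bbc3 was 0.0427, and 7.64% of all genes had one under 0.05.

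Scaling moved the values of all genes, members included. Rescaled to TPM, which gives every library the same total, over all genes, mitochondrial ones included, 9 of 9 members were called lower in the model than in control. Under that scaling 10445 of the 13898 genes (75.2%) were called in either direction, and the median of all genes moved from -0.23 to -2.60. Relative to that median, Bbc3 was -1.09 under TPM, -1.62 with the deposited FPKM, -2.82 with TPM over non-mitochondrial genes, and -1.46 after quantile normalization, and Mcl1 was -0.47, 0.29, 0.48, and -0.17. In SYD against control, TPM over all genes called 5 of 9 members, all lower, beside 43.4% of all genes in either direction and at a median of -1.31 for all genes. For SYD against the model, the all-gene median moved from 0.22 to 1.22, and Bbc3 was still the 1 member called, beside 3.81% of all genes.

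Around the members, 52 further genes of the pathway were listed, 51 of them were in the table, and 44 were tested. In the model against control, 4 of the 44 were called, all lowered, which is 9.09% beside 14.7% of all genes. The split of the calls depended on the setting, with 3 raised and 3 lowered after quantile normalization, 2 raised and 6 lowered with limma-voom, and 5 raised and 4 lowered without model library 1, beside 14.7%, 23.6%, and 19.5% of all genes. The 4 were Bcl2l13, a mitochondrial BCL2 family protein (-1.38), Apaf1, the scaffold of the apoptosome (-1.47), Parp1, a DNA repair enzyme that caspases cleave (-2.37), and Birc5 (survivin), which is expressed in dividing cells (-2.39), with adjusted p-values of 0.180 to 0.237 (limma). These calls depended on single libraries and on the fit. Of the 15 alternatives with at least 2 model libraries, 10 called Bcl2l13, 8 Birc5, 7 Apaf1, and 7 Parp1, all as lower. Over these 15 the log2 fold change was -4.18 to -1.09 (Bcl2l13), -5.19 to -1.82 (Birc5), -3.73 to -0.98 (Apaf1), and -4.96 to -1.28 (Parp1). Without model library 2 none of the 4 was called (unadjusted p = 0.0571 to 0.136, limma), with the replicate number as a block only Parp1 was, and limma-voom did not call Parp1 (unadjusted p = 0.0566). All 4 calls were also lost without control library 2 or 3, those of Apaf1, Birc5, and Parp1 without control library 1, that of Apaf1 without model library 1, and those of Bcl2l13 and Birc5 without model library 3. By unadjusted p under 0.05, 2 were raised and 7 lowered, where 19.2% of all genes passed. The raised genes were Bcl2l2 (0.98), a survival protein, and Tradd (0.74), an adaptor of death receptors. Among the lowered were also Bik (-0.71), a BH3-only protein, and Aifm1 (-0.85), a protein released from mitochondria.

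Apaf1, with which Casp9 assembles, had 4.79, 4.16, and 5.09 FPKM in control, 0.0894, 0.855, and 3.28 in the model, and 1.84, 1.64, and 3.44 in SYD. Every model and every SYD library was below every control library. Cycs, Xiap, Bid, and Ddit3 had no unadjusted p under 0.05 in the model against control by limma on FPKM, but limma-voom called Bid lower (-1.30, unadjusted p = 0.0225), and Cycs was called higher without model library 1 (1.20, unadjusted p = 0.00422, limma). The log2 fold changes in the model against control were 0.24 for Cycs (cytochrome c), -0.05 for Xiap, a caspase inhibitor, -0.43 for Bid, which links Casp8 to mitochondria, and 0.41 for Ddit3 (CHOP), a transcription factor of endoplasmic reticulum stress. Ddit3 was 6.72, 8.53, and 7.14 FPKM in control, 9.88, 12.7, and 8.54 in the model, and 16.0, 10.6, and 7.45 in SYD, above all control libraries in each model library but with an unadjusted p of 0.167 (limma).

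In SYD against the model, 0 of the 44 genes were called by limma or by limma-voom and 0 had an unadjusted p under 0.05 with either, where 4.15% and 5.26% of all genes did with limma on FPKM. Log2 fold changes there were 0.65 (Apaf1), 0.57 (Cycs), -0.19 (Xiap), -0.42 (Bid), and 0.08 (Ddit3). Among the 9 members and these 44 genes, Bbc3 was the 1 gene that passed the criteria there. Without model library 2, 4 of the 44 were called, 2 of them raised, beside 18% of all genes in that fit.

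In SYD against control, 6 of the 44 were called (2 raised and 4 lowered), or 13.6% beside 16.5% of all genes, and 8 had an adjusted p under 0.05, where 17.3% of all genes did. Raised were the survival gene Bcl2a1 (1.25, adjusted p = 0.0233, limma) and Bok, a Bax-like protein (1.13, adjusted p = 0.0243, limma). Bcl2a1 is abundant in neutrophils, whose markers summed to 3195 to 6035 FPKM in control and to 548 to 3402 in SYD, and their part in the value of Bcl2a1 was not tested. Lowered were Parp1 (-1.67, adjusted p = 0.00611), Bcl2l13 (-1.40, adjusted p = 0.0187), Foxo3 (-1.52, adjusted p = 0.0202), and Birc5 (-2.51, adjusted p = 0.0219), all by limma. Parp1 had 20.8, 25.1, and 21.6 FPKM in control and 5.80, 6.94, and 6.43 in SYD, with no overlap. The death receptor gene Tnfrsf1a (0.59) also had an adjusted p under 0.05 (0.0335, limma) but was under the fold criterion. Apaf1 (-0.82) and Cycs (0.80) had unadjusted p-values of 0.0170 and 0.0107 (limma), and Xiap (-0.24), Bid (-0.85), and Ddit3 (0.49) had none under 0.05 in that fit. Bid was called lower with limma-voom (-1.12, unadjusted p = 0.0115) and without SYD library 3 (-1.25, unadjusted p = 0.00161, limma), and Ddit3 passed by p without SYD library 3 (0.73, unadjusted p = 0.0207, limma). A fit of all 9 libraries together keeps the fold changes but takes its spread from all 3 groups. There the calls of Bcl2a1, Bok, and Parp1 were lost (unadjusted p = 0.226, 0.0503, and 0.0541, limma). Of the 15 alternatives, 14 called Parp1, 13 Bcl2a1, and 12 Bok. Bok was under the fold criterion without SYD library 2 (0.97). With TPM over all genes Bcl2a1 was -0.17 and Bok 0.11, neither called, at a median of -1.31 for all genes tested.

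Foxo3 is a known activator of Bbc3, so its level is set beside it. Foxo3 was 14.3, 21.7, and 16.9 FPKM in control, 12.8, 2.69, and 12.0 in the model, and 6.93, 6.35, and 3.56 in SYD. The relation of Foxo3 to Bbc3 in these libraries was not tested. B cell markers moved from 298 to 381 FPKM summed over 10 genes in control to 27.4 to 71.8 in the model and 23.7 to 57.2 in SYD, the same direction as Birc5, Parp1, and Foxo3 in SYD, and their part in these genes was not tested.

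**Figure D5:**
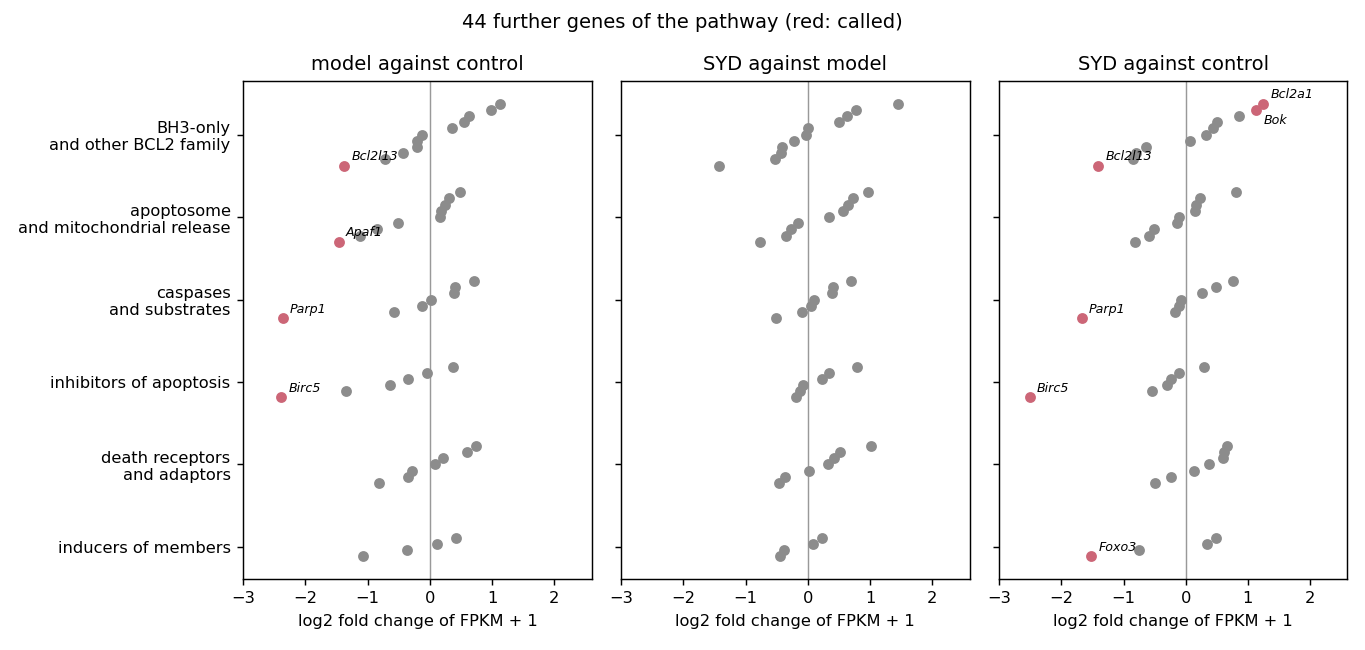
Log2 fold change of FPKM + 1 (horizontal axis) of the 44 further pathway genes in the 3 comparisons, in 6 classes, with called genes in red and named. The model against control has 4 called genes, all to the left of 0, SYD against the model has 0, and SYD against control has 4 to the left and 2 to the right.

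The genes whose levels ran most like each member were found over the 9 libraries among 10771 genes by Pearson's r of log2(FPKM + 1), given as a description since all values share the same libraries and depths. Bbc3 was most like Med24 (r = 0.996), Tusc1 (0.993), and Eef1akmt4 (0.981). Bcl2l1 was most like Eef1e1 (0.986), Selenbp1 (0.986), and Rasal3 (0.985), and Bak1 most like Ctr9 (0.982), Asxl2 (0.980), and Tatdn2 (0.979). Bcl2l11 was most like Secisbp2 (0.989), Pdcd11 (0.988), and Aen (0.977), Casp8 most like Vps13c (0.979), Lemd2 (0.971), and Wdr48 (0.963), and Casp9 most like Pfkp (0.983), Nhlrc3 (0.975), and Nudt19 (0.965). For Bax the partners were Utp14a (0.832), Tinagl1 (0.822), and Snora71a (0.821), and for Mcl1 they were Pwwp3a (0.943), Ppan (0.909), and Mapk13 (0.899). Bcl2 was most like Tmem268 (0.940), Btbd6 (0.918), and Spidr (0.909). Between members, r was 0.81 for Bak1 with Bbc3, 0.80 for Bak1 with Bcl2, 0.75 for Casp8 with Casp9, and -0.84 for Bcl2l1 with Casp9.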

How the data were processed

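RNA was taken from rat cartilage and made into libraries with a TruSeq RNA kit, which does not mark strand. The authors deposited 1 table of FPKM for 32043 genes in 9 libraries, with positions and lengths. The submitters' processing notes name HISAT2 2.0.5 and a human build, although the gene identifiers are rat, and the counting tool and annotation are not given in the sources used here. Coordinates of genes are those of the table, whose build it does not name.

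FPKM values were whole multiples of the value of 1 read (100% within 0.1), so reads were recovered. The step implies effective library sizes of 0.193 to 2.18 times the recovered reads, so the scaling differed between libraries. By effective size the libraries stood in the same order as by non-mitochondrial reads. Model library 1 had an effective size of 3636667 with 1744769 non-mitochondrial of 18815977 recovered reads. Control library 1 had 30015950 with 14306782 of 14914121.

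Groups came from the labels. Library names in the table matched those in the labels, and the SYD group rests on the labels' assignment of the CXTB names. Members were tested with limma 3.58.1 (R 4.3.3) on log2(FPKM + 1), with a trend in the variance, two-sided, on the 6 libraries compared and the 13898 genes with a mean of at least 0.5 FPKM. P-values were adjusted by Benjamini-Hochberg over all of them. The fit was also run on simulated normal values with known changes, the same spread in both groups, and no added zeros. That run does not test the wider spread and the zeros of the model libraries.

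Named genes were the members, 7 fixed pathway genes, the 4 smallest p-values under 0.05 in each direction and comparison from a pathway list, and the 3 most alike genes per member with a mean of at least 1 FPKM. Some genes named by this rule are not reported here. Bnip3l fell outside it and was chosen after its values were seen. Members and lists were chosen with earlier results of these data known. Marker lists of 8 cell types were summed. Alternatives were a pseudocount of 0.1, no filter or a mean of at least 1 FPKM, TPM over all or over non-mitochondrial genes, quantile normalization, all 9 libraries in one fit, the replicate number as a block, limma-voom on recovered reads, and each library left out. Model library 2 as the only model library was added after seeing the data. Skeletal muscle, macrophage, and endothelial markers summed to 20.2 to 326, 132 to 173, and 29.4 to 39.0 FPKM in control, to 38.0 to 700, 81.7 to 225, and 19.8 to 199.9 in the model, and to 27.7 to 973, 142 to 298, and 79.8 to 111 in SYD. Osteoblast markers summed to 3001 to 5965, 1245 to 7469, and 7750 to 10480 FPKM.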

Additional observations from a re-analysis of the deposited data

How the results depend on the processing

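Bbc3 was called lower in the model than in control under every alternative that kept at least 2 model libraries, at -4.88 (limma-voom) to -1.43 (quantile normalization), and was -1.12 with model library 2 alone. With that library alone the fit takes its spread from the other group and assumes that the lone library varies like it, so its counts do not test the model group. The number of members called in the model against control was 1 but 9 with TPM over all genes and 2 with model library 2 alone, and 1 to 5 with a library left out, where 75.2%, 23.8%, and 9.42% to 24.1% of all genes were called. In SYD against the model it was 0 with model library 2 alone and 0 to 2 with a library left out, beside 2.56% and 2.27% to 18.0% of all genes. In SYD against control it was 5 with TPM over all genes, 1 with quantile normalization, 1 with limma-voom, and 0 to 1 with a library left out, beside 43.4%, 18.3%, 24.4%, and 12.9% to 18.7% of all genes. Pathway genes called in the model against control numbered 2 without a filter (8.87% of all genes), 34 and 7 with TPM over all and over non-mitochondrial genes (75.2% and 16.3%), 8 with limma-voom (23.6%), 14 with model library 2 alone, and 0 to 9 with a library left out. In SYD against the model they numbered 1 with model library 2 alone and 0 to 4 with a library left out, and in SYD against control 18 with TPM over all genes, 3 with all libraries in one fit (12.9% of all genes), 10 with limma-voom, and 5 to 9 with a library left out. By the F test 5 members passed with TPM over all genes, 1 with limma-voom, and 0 to 2 with a library left out, beside 53.6%, 7.64%, and 0.036% to 18.7% of all genes. The causes were not tested.

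Replicate numbers are shared between groups. The r of deviations from the group mean was -0.27 to 0.19 for same-numbered libraries and -0.31 to 0.26 for the others. Such deviations sum to 0 within a group, so these values cannot tell whether the numbers pair libraries. With the replicate number as a block, 1, 1, and 0 members were called in the 3 comparisons (in the last, 0 members had an unadjusted p under 0.05), and 1, 1, and 6 pathway genes, beside 12%, 3.78%, and 16.3% of all genes.

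Log2 fold changes that turned sign belonged to members not called by limma on the deposited FPKM. Some were called after turning, such as Bcl2l1, Mcl1, and Bcl2l11 with TPM over all genes in the model against control. The median of all genes was -2.60 there, and relative to it these 3 were -0.31, -0.47, and 0.21. In the model against control the values that turned were, with a pseudocount of 0.1, 0.00082 (Bax) and -0.071 (Bcl2l11). With quantile normalization they were 0.023 (Bax), 0.24 (Bcl2), -0.13 (Mcl1), and 0.081 (Casp9), and with limma-voom 0.081 (Bax), -0.33 (Bcl2l1), and -0.32 (Bcl2l11). TPM over all genes gave -2.90 (Bcl2l1), -3.07 (Mcl1), and -2.39 (Bcl2l11), and TPM over non-mitochondrial genes -0.083, -0.16, and -0.25. Model library 2 alone gave 0.10 (Bax), 0.30 (Bcl2), -1.88 (Bcl2l1), -0.23 (Bcl2l11), and 0.82 (Casp9). In SYD against the model, a pseudocount of 0.1 gave 0.10 (Bcl2l11) and -0.0039 (Casp8), quantile normalization 0.051 (Mcl1), -0.36 (Casp8), and -0.34 (Casp9), and limma-voom -0.048 (Bak1), 0.41 (Bcl2l11), and -0.23 (Casp8). TPM over all genes gave 0.53 (Bcl2l1), 1.54 (Mcl1), and 1.12 (Bcl2l11), and over non-mitochondrial genes 0.14 (Mcl1) and 0.26 (Bcl2l11). Model library 2 alone gave -0.22 (Bak1), -0.067 (Bcl2), 1.05 (Bcl2l1), 0.25 (Bcl2l11), -0.72 (Casp8), and -1.09 (Casp9). In SYD against control, TPM over all genes gave -1.35 (Bax), -0.88 (Bcl2), -1.53 (Mcl1), and -1.27 (Bcl2l11), and Mcl1 was -0.018 with TPM over non-mitochondrial genes and -0.079 with quantile normalization.

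With a library left out, the ranges in the model against control were -0.084 to 0.16 (Bax), -0.63 to 0.034 (Bcl2), -0.41 to 1.25 (Bcl2l1), -0.069 to 0.20 (Mcl1), and -0.54 to 0.48 (Bcl2l11). In SYD against the model they were -0.20 to 0.078 (Mcl1), -0.46 to 0.56 (Bcl2l11), -0.59 to 0.60 (Casp8), and -0.20 to 0.97 (Casp9). In SYD against control they were -0.083 to 0.097 (Mcl1), -0.027 to 0.10 (Bcl2l11), -0.48 to 0.20 (Bbc3), and -0.48 to 0.10 (Casp9).

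Low members rested on few reads. In the model libraries with the fewest non-mitochondrial reads, Casp9 rested on 9 and 5 reads and Casp8 on 18 and 0, while Mcl1 had 324 or more. At the control mean they would have held 27.9 and 51.0 reads of Casp9 and 34.7 and 63.5 of Casp8.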
